A study of Mus musculus with 6 samples.

Results

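The 46 genes described here carry a cell from G2 through mitosis. They were taken by symbol from a fixed list of cyclins, kinases, kinetochore, spindle and cytokinesis genes, and all 46 were found among the 57010 gene identifiers of the count table. Each of them passed the filter on low counts, and the lowest count of any of them in a library was 132. RNA came from fibroblasts of the mouse ear, kept for 3 days either on glass, the control, or on a polyacrylamide hydrogel with a stiffness of 1 kPa or of 20 kPa. Each substrate had 2 libraries, made from polyadenylated RNA of 500000 cultured cells per sample. All 3 groups shared the cell source and the time. The series asks how matrix stiffness acts on the epigenetic state of cells on their way to induced neurons, but the labels name no reprogramming factor for these samples, and no genotype, strain, age or treatment other than the substrate. They do not say whether the 2 libraries of a substrate came from separate animals or cultures, so p-values measure the spread between these libraries, which may be technical.

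A cell enters mitosis when Cdk1, bound to cyclin A or B, becomes active. Polo and Aurora kinases, kinesins and spindle proteins then build the spindle, and kinetochores tie the chromosomes to it while the spindle checkpoint holds back the anaphase-promoting complex until every chromosome is attached. The complex, started by Cdc20, then marks the B-type cyclins for destruction, and the cell divides at the cleavage furrow. The mRNA of most of these genes is highest in G2 and mitosis, so in a culture it is used as a marker of dividing cells. Dermal fibroblasts divide in culture and stop dividing when they become quiescent.

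Library totals ran from 17669006 to 21350111 counts, and 35322 to 72921 of these fell on the 46 genes. Levels are in CPM, the count divided by the TMM-scaled library total and multiplied by 1e6, and values of the 3 substrates stand in the order glass, 1 kPa, 20 kPa. All 12 fibroblast markers were measured, with mean sums of 20450, 29169 and 31753 CPM, but they did not move together. On 1 kPa 10 were higher (83.3%) and 2 lower (16.7%) than on glass, and on 20 kPa 8 were higher (66.7%) and 2 lower (16.7%). For comparison with this and the marker lists below, 23.0% of all tested genes were higher and 22.0% lower on 1 kPa. On 20 kPa these shares of all tested genes were 22.3% and 19.6%. Col1a1 and Col3a1, fibrillar collagen chains, had means of 6290, 7930 and 8110 CPM and of 3000, 6410 and 8340 CPM. The small proteoglycans Dcn (157, 3540 and 2910 CPM) and Lum (45.8, 938 and 884 CPM) were far higher on the gels, while Vim, the mesenchymal intermediate filament (4190, 2190 and 2720 CPM), and S100a4 (22.5, 11.3 and 13.8 CPM) were lower. Markers of other cells were present at lower levels and also differed between substrates. The 11 chondrocyte markers summed to 556 to 589 CPM on glass, 857 to 882 on 1 kPa and 1459 to 1518 on 20 kPa. Of 10 tested, 7 were higher and 1 lower on 1 kPa, and 9 higher and 1 lower on 20 kPa, by edgeR and DESeq2. Between the gels 9 were higher on 20 kPa (90%, against 8.94% of all tested genes) and 0 lower, where DESeq2 called 8 higher. Col2a1 was at 143, 274 and 518 CPM, and Sox9, the 1 that was lower, at 285, 164 and 251 CPM. Matn1, not tested, had 4 and 4 counts on glass and 0 in all gel libraries. The sum of 11 keratinocyte markers was 93.5 to 102 CPM on glass and 42.4 to 47.0 CPM on the gels. Within it Perp had means of 76.4 CPM on glass and 17.2 CPM on 1 kPa, with 18.2 and 17.8 CPM in the 20 kPa libraries, and Trp63 had means of 11.1, 23.3 and 22.5 CPM, while the basal keratins Krt5 and Krt14 had means of 2.68 and 3.13 CPM on glass and of at most 0.664 CPM on a gel. Leukocyte markers summed to 11.8 to 16.7 CPM, with means of Ptprc, which all leukocytes carry, of no more than 0.260 CPM. Of 6 tested, 2 were higher and 0 lower on 1 kPa, and 1 was higher and 1 lower on 20 kPa. The 2 most abundant were Lyz2 (3.24, 6.32 and 5.34 CPM), higher on both gels, and Cd68 (3.94, 3.70 and 4.25 CPM), called on neither. Endothelial markers summed to 64.8 to 66.8 CPM on glass, 67.9 to 74.1 on 1 kPa and 95.6 to 100 on 20 kPa, mostly from Erg (44.7, 30.0 and 59.5 CPM). Erg was lower on 1 kPa, whereas 6 of the 10, among them Pecam1 (2.42, 8.02 and 6.71 CPM) and Cdh5 (4.71, 8.88 and 7.12 CPM), were higher there, as were 8 of the 10 on 20 kPa. Pericyte markers summed to 311 to 351, 220 to 230 and 254 to 268 CPM, mostly from Cspg4 (299, 187 and 231 CPM). Cspg4 was the 1 of 7 tested that was lower on 1 kPa, and 4 were higher there (1 and 3 by DESeq2). On 20 kPa 2 were lower, Cspg4 among them, and 3 higher (1 and 2 by DESeq2). Higher on both gels were, among others, Rgs5 (0.191, 0.646 and 0.704 CPM) and Abcc9 (0.0290, 1.07 and 0.776 CPM). On glass Rgs5 had 7 and 1 counts and Abcc9 0 and 1, so the size of these rises is uncertain. Skeletal muscle markers summed to 16.5 to 18.6, 40.8 to 41.1 and 24.3 to 27.6 CPM, and 4 of 6 tested were higher on 1 kPa and 3 on 20 kPa, with none lower by edgeR, by DESeq2 or at an unadjusted p under 0.05. These included the embryonic myosin Myh3 (0.156, 6.45 and 4.15 CPM), Mylpf (0.787, 5.73 and 3.55 CPM) and the myogenic factor Myog (0.0811, 1.16 and 0.681 CPM), while Pax7 had 0 counts in every library. Myh3 had 3 and 3 counts on glass and Myog 1 and 2, so the size of their rises is uncertain. Schwann cell and melanocyte markers summed to 27.0 to 27.6, 41.4 to 42.5 and 44.8 to 45.4 CPM. Of 8 tested, 4 were higher and 1 lower on 1 kPa, and 6 were higher and 1 lower on 20 kPa. The shares higher were 50% and 75%, and DESeq2 called 3 and 4 higher and 1 lower on each gel. Mitf (9.03, 21.9 and 18.6 CPM) was higher on both gels, and Mbp (8.61, 1.48 and 1.58 CPM) was the lower 1 on both. The part of these other cells in the results below was not tested.

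All 46 genes had lower levels in every gel library than in both glass libraries. The sum of their levels was 3371 and 3334 CPM on glass, with 1981 and 2041 on 1 kPa, and 1788 and 1711 on 20 kPa, so the gels held 60% and 52.2% of the mean on glass. Of all tested genes, 24.7% had both gels below glass in every library, 34.8% had 1 kPa below glass without overlap and 32.0% had 20 kPa below glass without overlap. All 46 differed over the 3 substrates (edgeR quasi-likelihood F test, adjusted p under the threshold of 0.05), as did 51.2% of the 16093 genes tested. Fewer dividing cells and less of these mRNAs per dividing cell cannot be told apart in RNA from whole cultures. The plot of each gene by library shows the separation of glass from the gels and a smaller step between the gels.

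**Figure D1:**
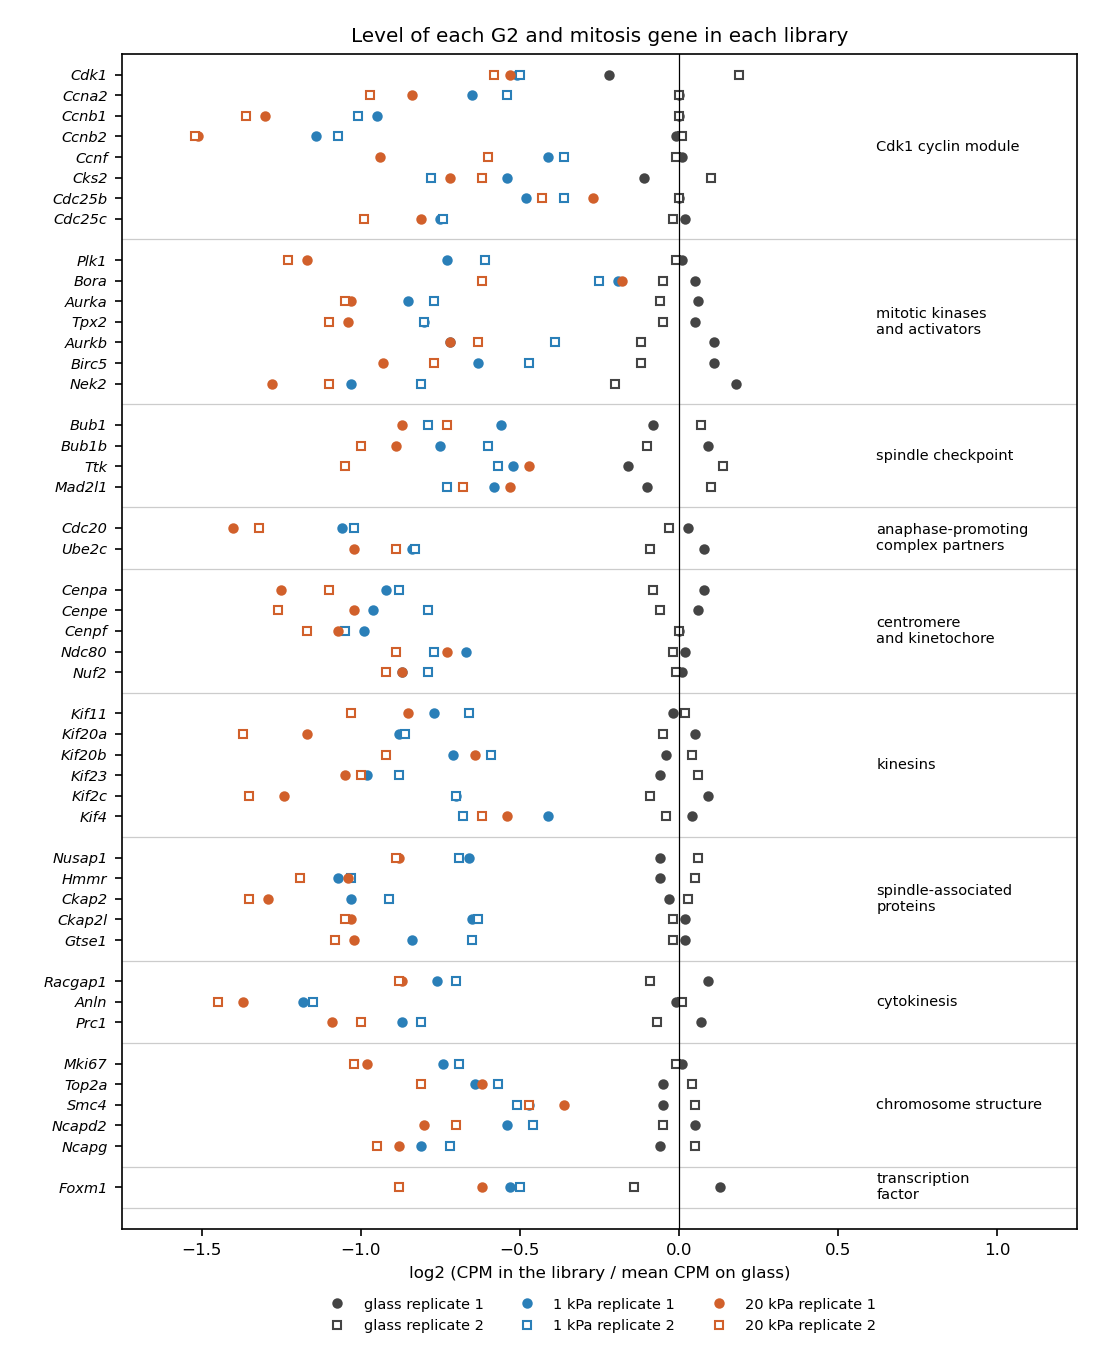
Level of each of the 46 genes in each library, as log2 of its CPM over its mean CPM on glass (horizontal axis), with genes grouped by role (vertical axis), filled circles for replicate 1 and open squares for replicate 2. The median gene lies at 59.7% and 61% of its glass mean in the 1 kPa libraries and at 53.4% and 50.2% in the 20 kPa libraries, and no gel point reaches the glass points of its gene.

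The promoters of 5 of these genes are shown because G2 and mitosis genes are known for a pair of shared elements. One is the cell cycle genes homology region, with the core TTTGAA, which is bound by the MuvB core of the DREAM and MYB complexes; the other is the CCAAT box bound by NF-Y. Each stretch is 130 bases, read 5′ to 3′ on the gene's strand from RefSeq promoter windows of GRCm38.p6, and ends before the first base that RefSeq or GENCODE M21 transcribes. Capitals mark TTTGAA or CCAAT on either strand, so that ATTGG is a CCAAT box on the other strand. The stretches lie at chr13:100786571-100786700 (minus strand), chr9:70421555-70421684 (minus), chr10:69352939-69353068 (minus), chr7:122159305-122159434 (plus) and chr4:118437353-118437482 (minus).
Ccnb1: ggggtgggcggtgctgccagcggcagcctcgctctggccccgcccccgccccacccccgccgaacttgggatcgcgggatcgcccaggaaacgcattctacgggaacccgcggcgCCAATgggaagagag
Ccnb2: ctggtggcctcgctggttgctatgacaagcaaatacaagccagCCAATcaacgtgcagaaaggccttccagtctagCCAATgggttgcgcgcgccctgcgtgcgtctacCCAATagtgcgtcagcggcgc
Cdk1: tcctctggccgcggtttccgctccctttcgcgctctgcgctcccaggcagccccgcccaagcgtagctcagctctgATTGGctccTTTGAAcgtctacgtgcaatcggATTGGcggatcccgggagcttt
Plk1: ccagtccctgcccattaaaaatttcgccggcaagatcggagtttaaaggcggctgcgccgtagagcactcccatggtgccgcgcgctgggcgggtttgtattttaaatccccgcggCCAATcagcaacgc
Cdc20: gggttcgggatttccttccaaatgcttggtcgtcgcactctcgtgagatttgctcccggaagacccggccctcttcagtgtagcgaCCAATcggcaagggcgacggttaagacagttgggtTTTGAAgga

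The Cdk1 stretch holds 1 TTTGAA between 2 CCAAT boxes, and the Cdc20 stretch 1 of each. The Ccnb2 stretch holds 3 CCAAT boxes, those of Ccnb1 and Plk1 hold 1 each, and none of these stretches holds TTTGAA. Outside the printed bases, the promoter windows hold TTTGAA at 31 for Plk1 and at -167 and 5 for Ccnb2, in bases from the RefSeq start. The Cdk1 window holds another at -15, while that of Ccnb1 holds none. RefSeq windows of 300 bases, from 250 before to 50 after the start, were used for 38 of the 46 genes, without Ccna2, Aurkb, Smc4, Foxm1, Kif20a, Tpx2, Cdc25c and Bora. TTTGAA was found on either strand in 27 of them (71.1%), against 20.2% of the 27025 genes with a window. A CCAAT box was found in 30 (78.9%, against 41.1%), and both in the same window in 23 (60.5%, against 7.97%). The E2F core, searched as TTTGGCGC or TTTCGCGC, was found in 2 (5.26%, against 0.929%). Of the 35 TTTGAA matches, 26 lay within 50 bases before the start or beyond it. Among 21 S phase genes with a window, TTTGAA was found in 3 (14.3%), a CCAAT box in 14 (66.7%) and the E2F core in 7 (33.3%). These are matches of letters, not measured binding, and their part in the changes between substrates was not tested. The median level on 1 kPa was 60.7% of glass for the 27 genes with TTTGAA in the window and 62.9% for the 11 without, and on 20 kPa it was 50.1% and 54.1%. The log2 fold changes ran from -1.17 to -0.39 with TTTGAA and from -0.98 to -0.42 without it on 1 kPa, and from -1.51 to -0.55 and from -1.33 to -0.35 on 20 kPa. The ranges overlapped on both gels, and the difference between the medians was not tested.

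**Figure D2:**
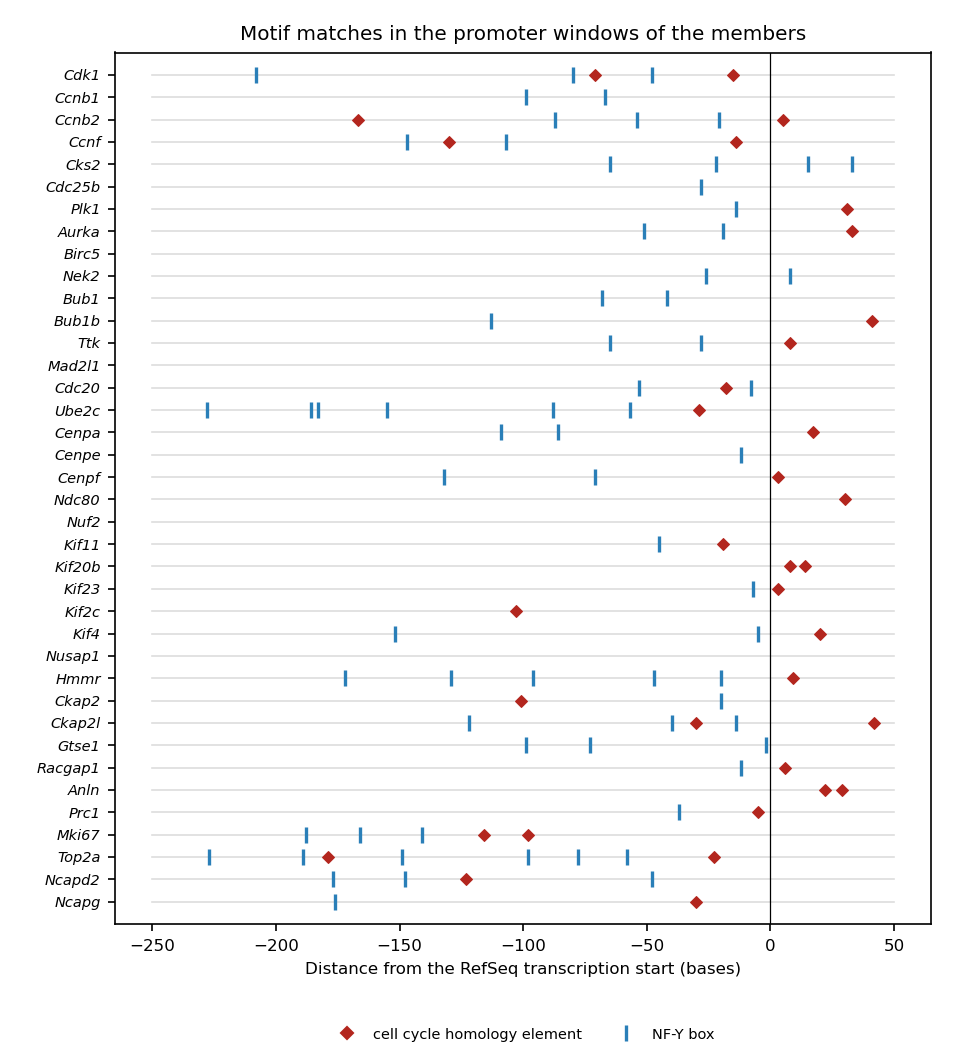
Positions of matches to the cell cycle homology element (diamonds) and the NF-Y box (bars) in the RefSeq windows of 38 members (vertical axis), by distance from the start in bases (horizontal axis). Of 35 homology element matches, 26 lie within 50 bases before the start or beyond it, and of 69 NF-Y boxes 43 lie within 100 bases before the start.

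On 1 kPa, 45 of the 46 genes were lower than on glass and none was higher, where 22.0% of all tested genes were lower and 23.0% higher (45.0% in either direction). The median log2 fold change was -0.72, against 0.00 over all genes, and it ran from -1.17 for Anln to -0.22 for Bora. On 20 kPa, all 46 were lower, where 19.6% of all tested genes were lower and 22.3% higher (41.8% in either direction), with a median of -0.92 against 0.02 and a range from -1.51 for Ccnb2 to -0.35 for Cdc25b. No member was higher at an unadjusted p under 0.05 in edgeR, and none was called higher by DESeq2, in either comparison. A fall of at least 2-fold was measured for 5 genes on 1 kPa (Ccnb2, Cdc20, Cenpf, Hmmr and Anln) and for 20 genes on 20 kPa. The comparisons share the glass libraries, so they are not independent of each other. The single gene that missed the threshold on 1 kPa was Bora, an activator of Aurora A and Plk1, with 17.8 and 16.6 CPM on glass, with 15.1 and 14.5 on 1 kPa, and 15.2 and 11.2 on 20 kPa. Its log2 fold change was -0.22 on 1 kPa (SE 0.12, adjusted p = 0.150) and -0.38 on 20 kPa (SE 0.12, adjusted p = 0.0125), and the second call was lost with DESeq2, without glass replicate 1 and without 20 kPa replicate 2, where the value was -0.18. Without 20 kPa replicate 1 it was -0.62.

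Within the Cdk1 module the B-type cyclins had the largest changes. Ccnb1, whose protein activates Cdk1 at mitotic entry, was at 87.6 and 87.9 CPM on glass, with 45.3 and 43.5 on 1 kPa, and 35.7 and 34.1 on 20 kPa. Ccnb2, the Golgi-associated B-type cyclin, was at 56.9 and 58.0, 26.0 and 27.3, and 20.2 and 20.1 CPM. The 3 substrates were fully separated for both genes. The log2 fold changes against glass were -0.98 (SE 0.07) and -1.33 (SE 0.07) for Ccnb1 and -1.11 (SE 0.08) and -1.51 (SE 0.08) for Ccnb2, on 1 kPa and 20 kPa. Both have an annotated pseudogene (Ccnb1-ps and Ccnb2-ps), as does Kif4, so a part of their counts may be shared.

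Ccna2, which acts from S phase into mitosis, fell less: 78.5 and 78.8 CPM on glass, with 50.1 and 54.0 on 1 kPa, and 43.9 and 40.2 on 20 kPa. Cdk1 itself, the mitotic kinase, was at 74.9 and 99.1, 61.3 and 61.7, and 60.2 and 58.1 CPM. Its glass libraries stood apart from each other, yet both above all gel libraries, and its log2 fold changes were -0.49 and -0.55 (SE 0.09 each). Both moved with the glass library left out: they were -0.29 and -0.34 without glass replicate 2 and -0.69 and -0.74 without glass replicate 1, past the threshold each time. Ccnf, an F-box cyclin that targets ribonucleotide reductase, changed by -0.39 and -0.76, and Cks2, a small partner of Cdk1, by -0.64 and -0.66. Among the phosphatases that activate Cdk1, Cdc25b changed by -0.42 and -0.35 and Cdc25c by -0.75 and -0.90 on the log2 scale. Cdc25c had the lowest level per kilobase of exon of the 46 genes on glass, 2.58 CPM per kb, and Cdc20 the highest, 56.2 CPM per kb.

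Mitotic kinases fell on both gels. Plk1, the polo kinase that drives centrosome maturation and mitotic entry, was at 64.8 and 63.9 CPM on glass, with 38.9 and 42.2 on 1 kPa, and 28.6 and 27.5 on 20 kPa. The groups did not overlap, and the log2 fold changes were -0.67 (SE 0.07) and -1.20 (SE 0.08). Aurka, the kinase of the spindle poles, and its activator Tpx2 changed by -0.81 and -0.80 on 1 kPa and by -1.04 and -1.07 on 20 kPa. Aurkb and Birc5, kinase and survivin subunit of the chromosomal passenger complex, changed by -0.55 and -0.56 on 1 kPa and by -0.68 and -0.85 on 20 kPa. Nek2, a kinase that splits the centrosomes, changed by -0.93 and -1.19, from glass levels of 35.1 and 26.9 CPM.

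Spindle checkpoint genes and the partners of the anaphase-promoting complex that they hold back all fell on both gels. The medians were -0.66 on 1 kPa and -0.76 on 20 kPa for Bub1, Bub1b, Ttk and Mad2l1, against -0.94 and -1.16 for Cdc20 and Ube2c; the difference between these groups was not tested. Cdc20, the activator of the complex, was at 107 and 102 CPM on glass, with 50.1 and 51.5 on 1 kPa, and 39.5 and 41.8 on 20 kPa. Ube2c, the ubiquitin-conjugating enzyme that works with the complex, was at 65.9 and 58.6, 34.7 and 35.1, and 30.6 and 33.5 CPM, with 22.8% of its exonic length overlapped by Tnnc2 on the other strand. Mad2l1, the checkpoint protein that binds Cdc20, was at 46.2 and 53.0, 33.2 and 30.0, and 34.4 and 31.0 CPM. The gel libraries overlapped for Mad2l1 and not for Cdc20. Ttk, the checkpoint kinase Mps1, changed by -0.54 and -0.72, and the second value was -0.46 without 20 kPa replicate 2.

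Kinetochore and kinesin genes fell together. Cenpf, a large kinetochore protein, changed by -1.02 and -1.12 on the log2 scale. Cenpa, the centromeric histone, changed by -0.90 and -1.17, and Cenpe, the kinetochore motor, by -0.88 and -1.14. Ndc80 and Nuf2, partners in the complex that grips microtubules, changed by -0.72 and -0.83 on 1 kPa and by -0.81 and -0.89 on 20 kPa. Among the 6 kinesins the median was -0.71 on 1 kPa and -0.98 on 20 kPa. Kif2c, which takes microtubules apart at the centromere, was at 50.1 and 44.1 CPM on glass, with 28.9 and 29.0 on 1 kPa, and 19.9 and 18.5 on 20 kPa. Its log2 fold changes were -0.70 and -1.30 (SE 0.09 each). The other motors were Kif11, which pushes the spindle poles apart (-0.72 and -0.94), Kif20a and Kif23 of the central spindle (-0.87 and -1.27; -0.93 and -1.02), Kif20b (-0.65 and -0.77) and the chromokinesin Kif4 (-0.53 and -0.58). Kif20a shares 29.3% of its exonic length with Cdc23 on the other strand, and whether strand was used in counting is not given in the sources used here.

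Cytokinesis and spindle genes included the largest fall on 1 kPa. Anln, the scaffold of the cleavage furrow, was at 206 and 209 CPM on glass, with 91.7 and 93.4 on 1 kPa, and 80.3 and 76.2 on 20 kPa. Its log2 fold changes were -1.17 and -1.41 (SE 0.06 each), and both gels lay under 50% of glass. Racgap1, which directs furrow signalling, changed by -0.73 and -0.87, and Prc1, which bundles the midzone microtubules, by -0.84 and -1.05. Of the spindle-associated proteins, Hmmr, the hyaluronan-mediated motility receptor, was at 65.8 and 71.1, 32.7 and 33.6, and 33.2 and 30.1 CPM, with the gel libraries overlapping. Ckap2 changed by -0.97 and -1.32, Ckap2l by -0.64 and -1.04, Gtse1 by -0.75 and -1.05 and Nusap1 by -0.67 and -0.89.

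Genes of chromosome structure fell on both gels, with medians of -0.60 and -0.74. Mki67, the coat protein of mitotic chromosomes and the common marker of dividing cells, was at 297 and 294 CPM on glass, with 177 and 183 on 1 kPa, and 150 and 146 on 20 kPa. Top2a, which untangles sister chromatids, was at 267 and 284, 177 and 186, and 179 and 157 CPM. Smc4, a condensin core subunit, was at 135 and 145, 101 and 98.0, and 109 and 101 CPM, and changed by -0.49 and -0.41 (SE 0.06 each). The condensin subunits Ncapd2 and Ncapg changed by -0.50 and -0.76 on 1 kPa and by -0.74 and -0.91 on 20 kPa. The single transcription factor of the list, Foxm1, which drives late cell cycle genes, was at 72.7 and 60.6, 46.3 and 47.1, and 43.4 and 36.2 CPM. It changed by -0.52 and -0.75 (SE 0.09 each), and 39 of the 46 genes had a more negative log2 fold change on 1 kPa.

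**Figure D3:**
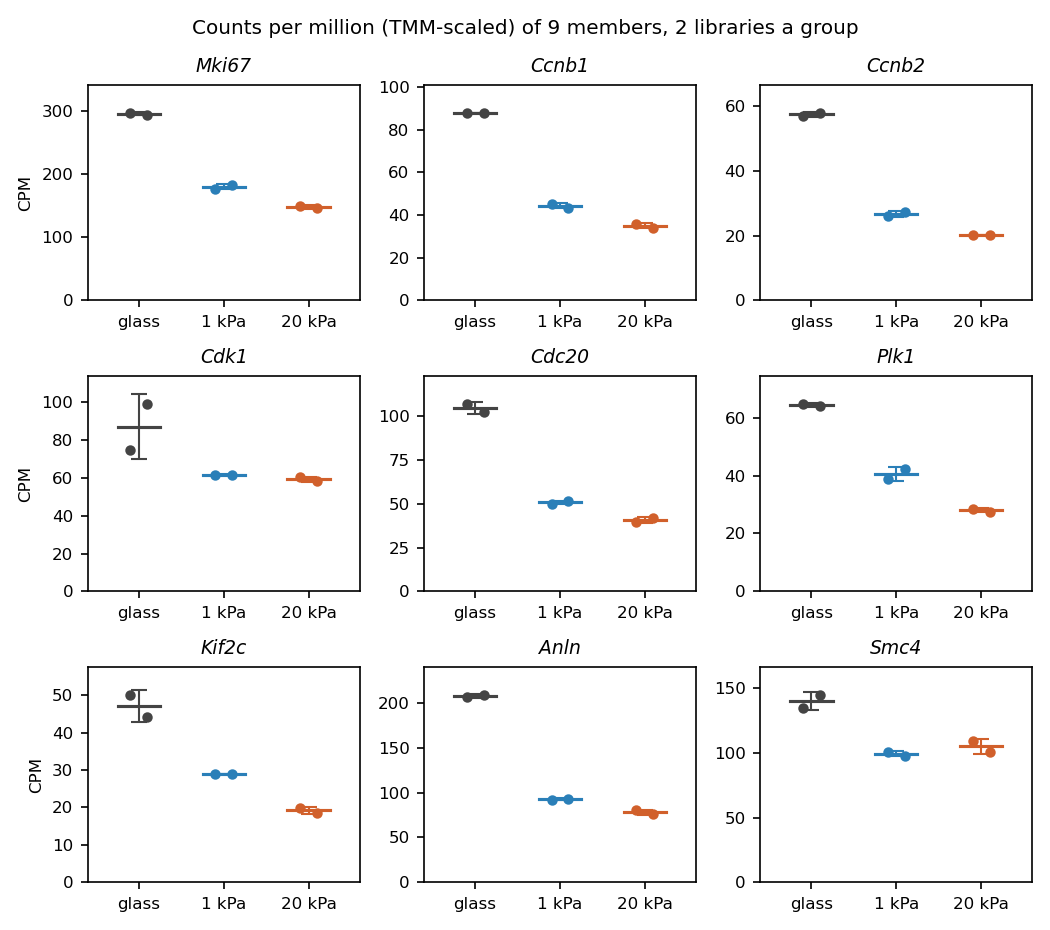
CPM of 9 of the genes (vertical axes, from 0) on glass, 1 kPa and 20 kPa, with a point per library, a bar at the mean and whiskers of 1 SD (n = 2). The substrates separate fully for Mki67, Ccnb1, Ccnb2, Cdc20, Plk1, Kif2c and Anln, while Smc4 is at 101 and 98.0 CPM on 1 kPa and 109 and 101 CPM on 20 kPa.

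The order of the means was not the order of stiffness. Glass, which is far stiffer than either gel, had the highest mean for all 46 genes, the softer gel had the middle mean for 43 of them, and 20 kPa the lowest. Both 20 kPa libraries lay below all other libraries for 33 genes, where 11.6% of all tested genes did so. Of the 46 genes, 20 were lower on 20 kPa than on 1 kPa past the threshold and none was higher, where 9.92% of all tested genes were lower and 8.94% higher (18.9% in either direction). The median log2 fold change was -0.22, against 0.00 over all genes. None was higher at an unadjusted p under 0.05, where 25 were lower, and DESeq2 called 15 lower and none higher. The count was 15 when libraries were scaled to total counts, 8 without 1 kPa replicate 2 and 11 without 20 kPa replicate 2. Over all genes, 47.4% of the genes called between the gels were higher on 20 kPa with TMM factors and 60.8% with total counts.

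The largest differences between the gels were those of Kif2c, lower on 20 kPa by a log2 fold change of -0.60 (95% interval -0.78 to -0.41, adjusted p = 1.46e-05), and Plk1, at -0.53 (-0.70 to -0.37). Ccnb2, Ckap2l and Kif20a followed, all at -0.40, then Ccnf at -0.37 and Ccnb1 at -0.35; Mki67 was at -0.28 (-0.40 to -0.16). Of these, Kif2c, Plk1, Ccnb2, Ckap2l, Ccnb1 and Mki67, 6 genes in all, kept their call under every alternative fit and without any single library. The other 14 calls each failed in at least 1 of them: Kif20a, Ccnf, Ckap2, Cdc20, Gtse1, Ccna2, Birc5, Bub1b, Tpx2, Cenpa, Cenpe, Ncapd2, Anln and Prc1. Prc1 was the weakest (-0.21, adjusted p = 0.0464) and was lost in 8 of 13 alternatives. Ccnf was at -0.21 without 20 kPa replicate 1, and Cenpe, at -0.26, was at -0.17 without 1 kPa replicate 2 and at -0.14 without 20 kPa replicate 2. Kif11 (-0.22, adjusted p = 0.0538) and Foxm1 (-0.23, adjusted p = 0.0684) lay just outside the threshold.

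For 3 genes the mean was higher on 20 kPa than on 1 kPa: Smc4 (log2 fold change 0.08, 95% interval -0.05 to 0.21), Cdc25b (0.07, -0.11 to 0.25) and Mad2l1 (0.05, -0.14 to 0.23). For Cdk1 the difference was -0.06 (-0.23 to 0.12), for Hmmr -0.07 (-0.23 to 0.10), for Cenpf -0.10 (-0.27 to 0.06) and for Top2a -0.11 (-0.24 to 0.02). These intervals leave out a difference as large as that of Kif2c or Plk1, but not a small one. The roles were mixed in this comparison: the Cdk1 module held both Ccnb2, at -0.40, and Cdc25b, at 0.07, and the kinesins both Kif2c, at -0.60, and Kif4, at -0.06 (-0.26 to 0.15).

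**Figure D4:**
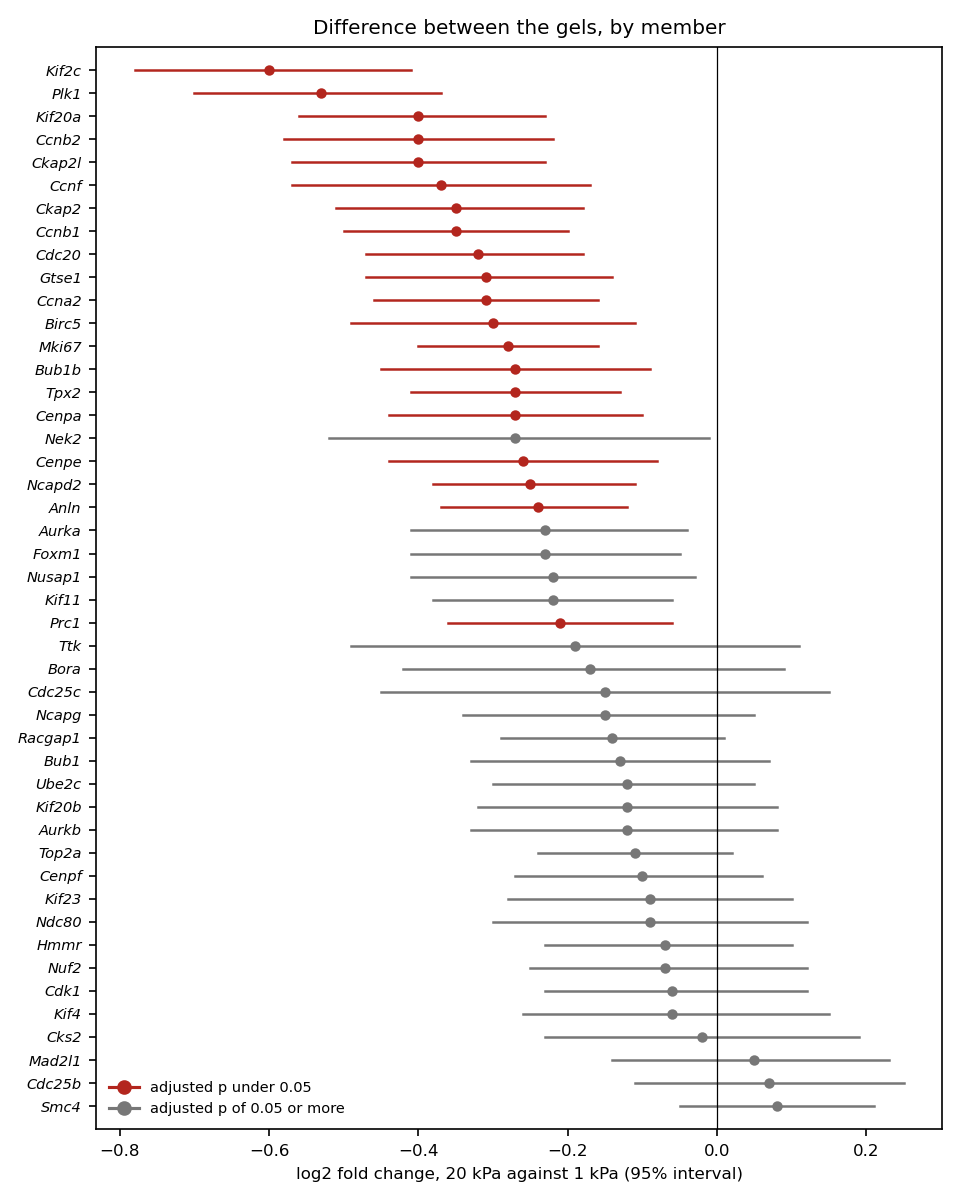
Log2 fold change of each of the 46 genes between 20 kPa and 1 kPa (horizontal axis) with its 95% interval, ordered by size (vertical axis) and coloured by whether the adjusted p is under 0.05. Values run from -0.60 for Kif2c to 0.08 for Smc4, and 20 genes pass, all of them lower on 20 kPa.

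Other genes of mitosis were mostly lower on the gels too. Of 40 further genes (motors, kinetochore and chromosomal passenger proteins among them), 36 were lower and 1 higher on 1 kPa (median -0.62). On 20 kPa 38 were lower and 1 higher (median -0.85). The shares lower were 90% and 95%, against 22.0% and 19.6% of all tested genes. The shares higher were 2.5% on both gels, against 23.0% and 22.3%. Between the gels 10 of the 40 (25%, against 9.92% of all tested genes) were lower on 20 kPa by edgeR and 5 by DESeq2, and none was higher by either tool or at an unadjusted p under 0.05. By level, the first 4 were Hjurp, the chaperone of Cenpa (-0.12, adjusted p = 0.107, and -0.39), Smc2, the condensin partner of Smc4 (-0.59 on both gels), the spindle protein Psrc1 (-1.11 and -1.06) and Incenp of the chromosomal passenger complex (-0.17 and -0.54). The exception was Pttg1, the securin that restrains separase, named after its values were seen. It stood at 9.71 and 9.63 CPM on glass, with 14.8 and 14.3 on 1 kPa, and 15.6 and 14.6 on 20 kPa (0.59 and 0.64, SE 0.12 each).

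The medians of the remaining lists were nearer 0. Of 15 genes of the anaphase-promoting complex, its activator Fzr1 among them, 8 were lower on 1 kPa and 7 on 20 kPa. The shares lower were 53.3% and 46.7%, against 22.0% and 19.6% of all tested genes, and the medians were -0.21 and -0.19. None of the 15 was higher by edgeR or DESeq2, with 0 and 1 higher at an unadjusted edgeR p under 0.05. Among its most abundant subunits, Anapc5 changed by -0.26 and -0.37, Anapc2 by -0.25 and -0.40 and Cdc16 by -0.50 and -0.19, while Anapc1 was at -0.17 (adjusted p = 0.0168) and -0.12 (adjusted p = 0.0981). Fzr1, which keeps the complex active into G1, changed by -0.21 and -0.27. Between the gels, 2 of the 15 (13.3%, against 8.94% of all tested genes) were higher on 20 kPa by edgeR, Cdc16 at 0.31 among them, and 1 by DESeq2. None was lower by edgeR or DESeq2, with 1 lower at an unadjusted p under 0.05. Of 17 measured genes of the DREAM, MuvB and E2F regulators, which govern late cell cycle transcription, 5 were lower and 3 higher on 1 kPa (29.4% and 17.6%, against 22.0% and 23.0% of all tested genes), where DESeq2 called 4 and 1. On 20 kPa 8 were lower and 2 higher (47.1% and 11.8%, against 19.6% and 22.3%), where DESeq2 called 6 and 1. The histone-binding MuvB subunit Rbbp4 was at -0.27 and -0.09 (adjusted p = 0.260), the E2F partner Tfdp1 changed by -0.15 and -0.27, and the repressor E2f6 by -0.49 and -0.52. E2f1, an activator of S phase genes, was at -0.19 (adjusted p = 0.0701) and -0.36. E2f4, a repressor partner in DREAM, was at 56.9 ± 1.3, 53.0 ± 4.9 and 46.1 ± 0.28 CPM (mean ± SD, n = 2; -0.10, adjusted p = 0.269, and -0.30). Rbl2, its pocket protein, had log2 fold changes of 0.06 and 0.10, with adjusted p of 0.624 and 0.338. Mybl2, which replaces the repressors on the same promoters, rose by 0.28 on 1 kPa (adjusted p = 0.0436) and was at 0.11 on 20 kPa (adjusted p = 0.475).

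S phase genes had smaller medians than the G2 and mitosis genes; that difference was not tested. Of 25, 13 were lower on 1 kPa and 17 on 20 kPa, with medians of -0.21 and -0.39. The shares lower were 52% and 68%, against 22.0% and 19.6% of all tested genes, and DESeq2 called 9 and 14 lower. None was higher by edgeR, by DESeq2 or at an unadjusted p under 0.05. Rrm1, the large subunit of ribonucleotide reductase, changed by -0.67 and -0.76, and the small subunit Rrm2 was at -0.10 (adjusted p = 0.227) and -0.25. The replicative helicase subunits Mcm6 and Mcm7 changed by -0.40 and -0.27 on 1 kPa and by -0.43 and -0.41 on 20 kPa, while Pcna, the sliding clamp of replication, was at -0.11 and -0.09 (adjusted p of 0.202 and 0.328). Between the gels, 3 of the 25 were lower on 20 kPa (12%, near the 9.92% of all tested genes). None was higher there by edgeR, by DESeq2 or at an unadjusted p under 0.05, where edgeR called 8.94% of all tested genes higher.

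Of 8 G1 cyclins and their kinases, 4 were lower on each gel (50%, against 22.0% of all tested genes on 1 kPa and 19.6% on 20 kPa). On 1 kPa 2 were higher by edgeR (25%, near the 23.0% of all tested genes) and 1 by DESeq2. On 20 kPa none was higher by edgeR or DESeq2, nor at an unadjusted p under 0.05. Ccnd1, the cyclin that links growth signals to the cycle, was at 404 and 377 CPM on glass, with 105 and 112 on 1 kPa, and 131 and 131 on 20 kPa. Its fall of -1.85 and -1.57 (SE 0.06 each) was larger than that of any of the 46 genes, and in contrast to most of them it was higher on 20 kPa than on 1 kPa (0.28, adjusted p = 0.00109). Ccnd2 changed by -0.23 and -0.18, and Ccnd3 was at 0.19 (adjusted p = 0.0125) and 0.11 (adjusted p = 0.181). Their partner Cdk4 changed by -0.38 and -0.19 and was also higher on 20 kPa than on 1 kPa (0.20). An antisense neighbour overlaps 23.4% of the exonic length of Ccnd1.

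Inhibitors of cyclin-dependent kinases fell as well, apart from Cdkn1b and Cdkn1c. Of 7 genes, 5 were lower on each gel by edgeR (71.4%, against 22.0% of all tested genes on 1 kPa and 19.6% on 20 kPa). DESeq2 called 3 lower on 1 kPa and 5 on 20 kPa. On 20 kPa 1 was higher by either tool (14.3%, against 22.3% of all tested genes by edgeR). Cdkn1a, the p53-responsive inhibitor p21, was at 297 and 284 CPM on glass, with 171 and 174 on 1 kPa, and 150 and 151 on 20 kPa (-0.75 and -0.95, SE 0.06 each). Cdkn1b, the inhibitor p27 of resting cells, had log2 fold changes of -0.16 (adjusted p = 0.0506) and -0.06 (adjusted p = 0.529). Cdkn2c, the INK4 inhibitor p18, changed by -0.42 and -0.25. Cdkn1c, the imprinted inhibitor p57, was at 19.1 and 14.8, 18.2 and 17.3, and 44.3 and 43.6 CPM. It rose on 20 kPa against glass (1.36, SE 0.10) and against 1 kPa (1.31, SE 0.10), with 30.7% of its exonic length overlapped by a gene on the other strand. Wee1, the kinase that restrains Cdk1, fell from 21.1 and 20.9 CPM to 14.7 and 13.3 on 1 kPa and 13.1 and 13.7 on 20 kPa (-0.58 and -0.65, SE 0.11 each). Its list held 3 genes, Cdk1 inhibitory kinases and a phosphatase, with medians of -0.11 and -0.58. Only Wee1 was lower on 1 kPa (33.3%, against 22.0% of all tested genes), and 2 were lower on 20 kPa (66.7%, against 19.6%). None of the 3 was higher on a gel by edgeR, by DESeq2 or at an unadjusted p under 0.05.

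**Figure D5:**
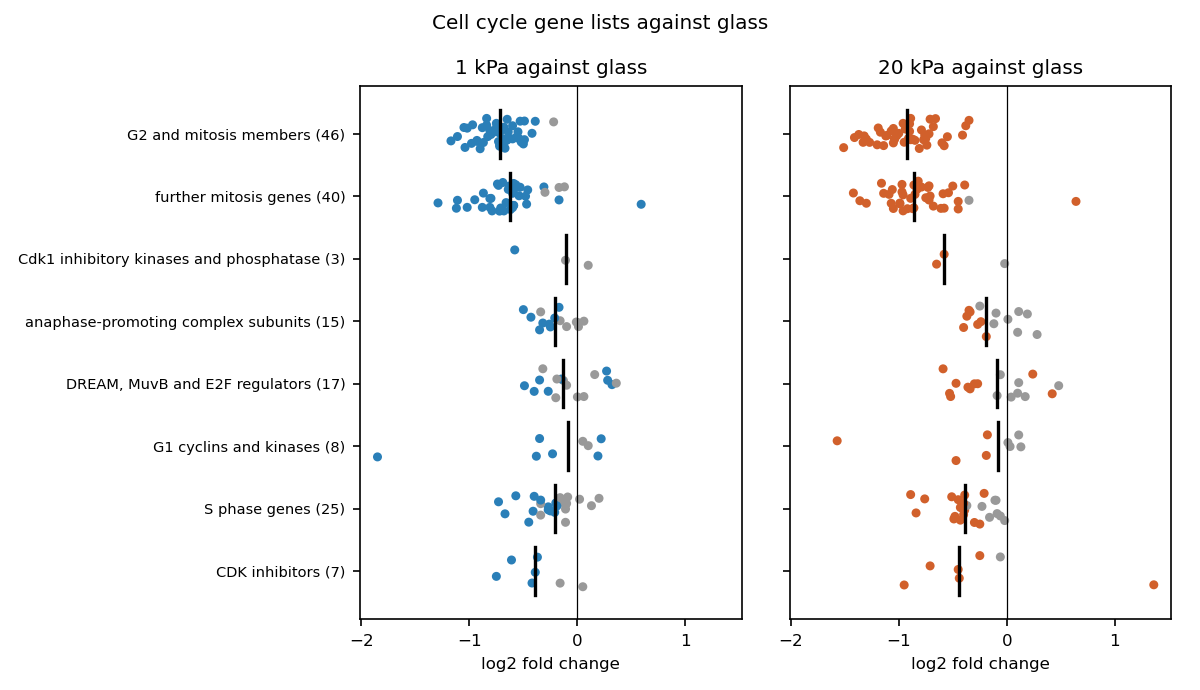
Log2 fold change against glass (horizontal axis) of the 46 members and 7 further cell cycle lists (vertical axis, number of tested genes in parentheses) on 1 kPa (left) and 20 kPa (right), with a point per gene, grey where the adjusted p is 0.05 or more, and a bar at the median. The member medians are -0.72 and -0.92, those of S phase genes -0.21 and -0.39, and the points farthest from their lists are Ccnd1 (-1.85 and -1.57), Pttg1 (0.59 and 0.64) and, on 20 kPa, Cdkn1c (1.36).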

How the data were processed

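The authors deposited raw counts per gene for 6 libraries, 2 on each of 3 substrates. Per the submitters' processing notes, the tools were featureCounts for counting, STAR 2.7.10b, cutadapt and Trim Galore, with mm10 as the build. Their settings, the use of strand and the annotation release: not given in the sources used here. Groups and replicate numbers came from the titles. Symbols, positions and exonic lengths came from GENCODE M21 (GRCm38, the assembly of mm10), which matched 91.3% of the identifiers; 99.9% of the matches carried another version. Exons overlapped another gene over more than 10% of their length for 7 members (Ccna2, Cdc25c, Ube2c, Kif20a, Kif4, Prc1 and Ncapg) and for Ccnd1, Cdk4, Cdkn1c, Mcm7, Rbbp4 and Rbl2, so their counts are uncertain.

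Genes were kept with filterByExpr (edgeR 4.0.16, R 4.3.3), which left 16093, and scaled with TMM factors. At these depths 3 counts correspond to 0.139 to 0.174 CPM, for counting error only. A single quasi-likelihood fit (glmQLFit, glmQLFTest) over all 6 libraries, with group as its only term and 3 residual degrees of freedom, gave every adjusted p in the text (Benjamini-Hochberg over all tested genes, threshold 0.05) unless DESeq2 1.42.0 is named. SE is the absolute log2 fold change over the square root of F, and 95% intervals use its t quantile. Where no p is printed, a gene said to have fallen, risen or changed, or given with an SE, passed the threshold except where stated. Pairs of log2 fold changes are for 1 kPa and then 20 kPa, both against glass.

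By the rule for named genes, all members could be named, of each further list the 4 genes with the highest mean CPM, and also Cdkn1a, Cdkn1b, Mybl2, E2f1, E2f4, Rbl2, Wee1, Ccnd1, Pcna and Fzr1. Of each marker list the 2 highest could be named; the other markers named, and Pttg1, were chosen after their values were seen. The members and lists were chosen with earlier results of these data known, so no p is adjusted over a list. The alternatives were DESeq2, median-ratio factors, total counts, no filter, a filter of 5 CPM in 2 libraries, the groups compared alone, a replicate block and leaving out each library. The fit was tested on simulated data, where it missed part of the changed genes of low count. A first limit on the share of changes found, set over genes of any level, was not met, and the limit was then applied to genes above 10 CPM only. Within each group the libraries' counts differed beyond sampling noise. Chi-square divided by its degrees of freedom was 7.17 on glass, 3.04 on 1 kPa and 2.87 on 20 kPa.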

Additional observations from a re-analysis of the deposited data

How the results depend on the processing

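The calls against glass held. On 1 kPa the same 45 members were lower under all 13 alternatives, and on 20 kPa 45 of 46 were, the exception being Bora. Leaving out a library gave 45 members on 1 kPa and 45 to 46 on 20 kPa, and 45 to 46 that differed over the 3 substrates. The comparison between the gels is the fragile one: without a library, 8 to 22 members were lower on 20 kPa than on 1 kPa, and 748 to 1930 genes were higher and 932 to 1896 lower over all tested genes. DESeq2 called 861 genes higher there, against 1438 by edgeR; the cause was not tested. With replicate numbers added as a replicate block, 45, 46 and 20 members were lower in the 3 comparisons. The numbers share no stated batch, and deviations of same-numbered libraries correlated at -0.0703 to -0.0101, so they were not treated as pairs; the block ended the call for Prc1 between the gels and added Foxm1. None of the differences that changed sign had passed the threshold. Without a library, the log2 fold change between the gels ranged from -0.28 to 0.04 for Aurkb, -0.40 to 0.04 for Bora, -0.24 to 0.00 for Bub1, -0.01 to 0.15 for Cdc25b, -0.13 to 0.11 for Cks2, -0.13 to 0.01 for Hmmr, -0.26 to 0.01 for Kif20b, -0.18 to 0.09 for Kif4, -0.03 to 0.13 for Mad2l1 and -0.50 to 0.07 for Ttk. With total counts, Cks2 was at 0.03. With 1 library left in a group, that library is assumed to vary like the others.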
